A study of Mus musculus with 5 samples.

Results

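Retinal ganglion cells are the output neurons of the retina, and 10 genes that mark their identity were followed in mouse retinas with and without diabetes. The genes were named as Pou4f1, Pou4f2, Isl2, Ebf1, Rbpms, Rbpms2, Slc17a6, Sncg, Thy1 and Nrn1, and a gene counted as measured where a probe set of the array was annotated to it alone. Of the 10 genes, 8 were measured, out of 18193 genes with such a probe set. Pou4f2 had no probe set in the annotation used, and the probe set of Rbpms2 was also assigned to a pseudogene, so both are not analysed here. The level of a gene was read from its probe set of highest mean signal.

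Total RNA was taken from 3 pools of diabetic retinas and 2 pools of control retinas, with 1 whole-genome mouse array per pool. The pools of diabetic replicates 1 and 2 were each made of 4 retinas from 2 mice that had been diabetic for 5 weeks after streptozotocin, which kills the beta cells of the pancreas. In the pool of diabetic replicate 3 were 6 retinas from 3 animals, with experimentally induced diabetes of 3 to 4 weeks. Control replicates 1 and 2 were each made of 4 retinas from 2 untreated mice of the same age with normal blood glucose. No strain or sex is given in the labels used here. Animals were pooled before hybridization, so a p-value compares pools, and the small number of arrays limits the precision.

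Ganglion cells collect signals from bipolar and amacrine cells and send them along the optic nerve to the brain. In development the proneural factor Atoh7 makes retinal progenitors competent for this fate, and Isl1 and the POU domain factors Pou4f2 and Pou4f1 then drive and maintain the ganglion cell programme. Transcripts restricted to these cells are widely used in rodent eyes as an index of ganglion cell number, for example in glaucoma models and after optic nerve crush. In RNA of the whole retina, fewer ganglion cells and less of a transcript per cell cannot be told apart. The deposited arrays share a common trimmed mean, which is how globally scaled arrays look. Each value is therefore read as a level relative to the rest of the retinal RNA.

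No ganglion cell identity gene was called different between diabetic and control pools, and most had slightly higher averages in diabetic pools. Of the 8 measured genes, 8 passed the filter on dim genes and 0 passed an adjusted p of 0.05 in limma with Benjamini-Hochberg adjustment over 10916 genes, where 0% of all tested genes passed. The adjusted p was 0.9995 for each of the 8 genes. At an unadjusted p under 0.05 there were also 0 of the 8, against 3.4% of all tested genes. The difference, diabetic minus control on the scale of log2(signal + 120.9), was above 0 in 6 genes and below 0 in 2, with a median of 0.07. Over all tested genes it was above 0 in 51.9%, with a median of 0.0061. The groups did not overlap in 1 of the 8 genes, against 18.1% of all tested genes. The 8 genes had 17 probe sets, of which 16 were tested and 0 passed the adjusted p, as did 0% of the 27022 probe sets tested. Of the 16, 13 differed by more than 0, against 47.6% of all tested probe sets. The groups did not overlap in 2 of the 16, against 17.2%, and both were higher in diabetic pools, against 8.19%.

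**Figure D1:**
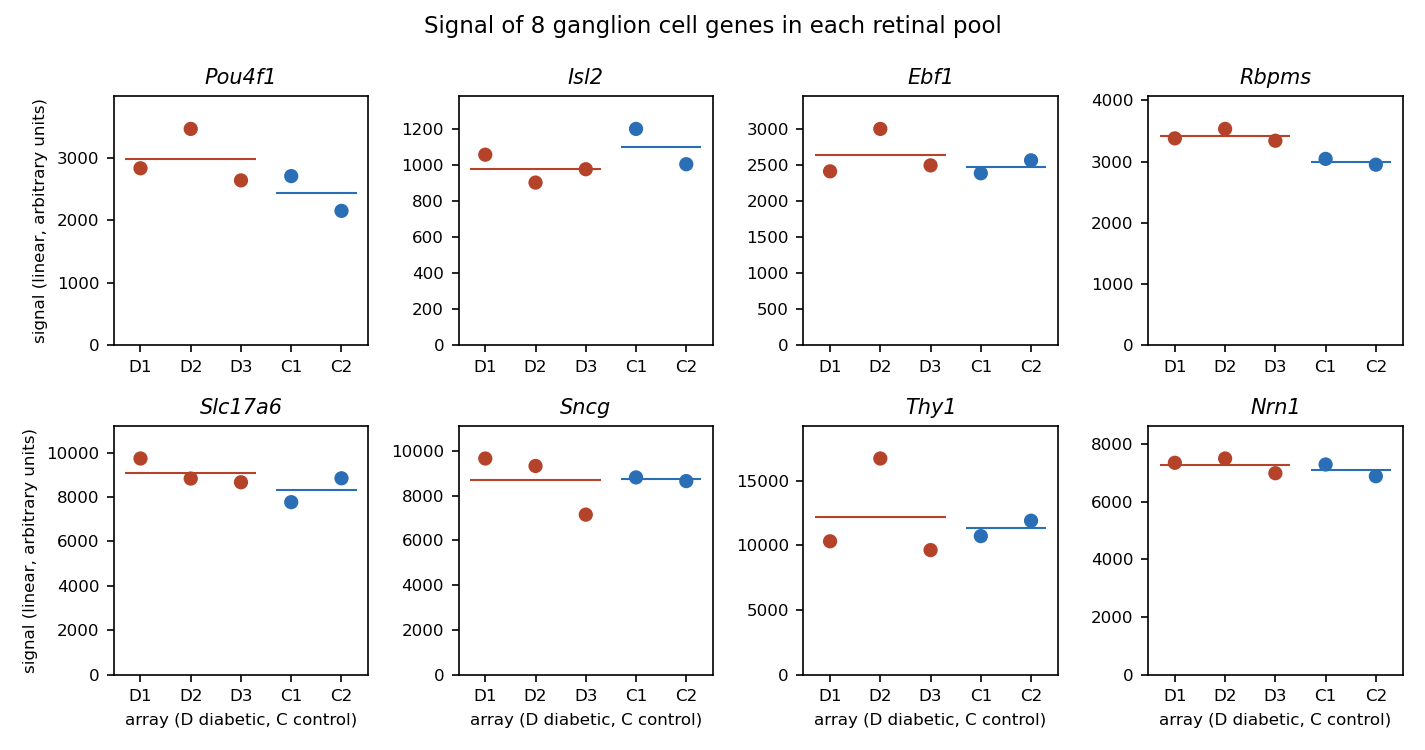
Deposited signal (linear, arbitrary units, axis from 0) of the 8 measured ganglion cell genes in each array, diabetic replicates 1 to 3 (D1 to D3, red) and control replicates 1 and 2 (C1, C2, blue); lines are group means. Diabetic and control pools overlap in every gene except Rbpms, and Thy1 stands at 16709 in diabetic replicate 2.

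Among the transcription factors, Pou4f1 had the largest difference. Pou4f1, also called Brn3a, is a POU domain factor of most ganglion cells that supports their survival and dendrite form. Its signal was 2832, 3463 and 2638 in diabetic replicates 1 to 3, against 2707 and 2150 in control replicates 1 and 2. The lowest diabetic pool lay below the higher control pool, so the groups overlapped, and the 2 extremes were diabetic replicate 2 at the top and control replicate 2 at the bottom. The difference was 0.28 (SE 0.16, 95% interval -0.08 to 0.64), or 1.22-fold on this scale, with a limma unadjusted p of 0.108. Leaving out control replicate 2 gave 0.12, diabetic replicate 2 gave 0.17 and control replicate 1 gave 0.44. The second Pou4f1 probe set had signals of 1393, 1796 and 1180 in diabetic pools, against 1334 and 1261 in control pools, a difference of 0.14 (95% interval -0.32 to 0.59). Diabetic replicate 2 was the highest array in both Pou4f1 probe sets.

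Isl2 was the one transcription factor with a lower average in diabetic pools. Isl2 is a LIM homeodomain factor that is known in mouse for marking ganglion cells that project to the opposite side of the brain. Its signal was 1056.5, 902 and 976 in diabetic replicates 1 to 3, against 1200 and 1004 in control replicates 1 and 2. Only diabetic replicate 1 exceeded a control pool, and the overlap rested on that array. The difference was -0.15 (SE 0.18, 95% interval -0.55 to 0.25). The Isl2 difference shrank to -0.04 when control replicate 1 was left out and to -0.10 when diabetic replicate 2 was, and widened to -0.27 when control replicate 2 was.

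Ebf1, an early B cell factor family member that acts in ganglion cell development in mouse, was measured by 5 probe sets, of which 4 passed the filter on dim probe sets. Its brightest probe set had signals of 2408, 2996 and 2490 in diabetic replicates 1 to 3, against 2381 and 2560 in control replicates 1 and 2. Diabetic replicate 2 was the highest array, and both of the other diabetic pools lay between the controls. The difference was 0.08 (SE 0.14, 95% interval -0.23 to 0.39) and turned to -0.011 when diabetic replicate 2 was left out. The same step gave 0.03 for control replicate 1, 0.13 for control replicate 2 and 0.14 for diabetic replicate 1. The 3 other tested probe sets of Ebf1 differed by -0.04, 0.02 and 0.29. The last of these was at 1261, 1280 and 1288 in diabetic pools, against 1209 and 858 in control pools, so its groups did not overlap and control replicate 2 stood alone at the low end. Ebf1 is also expressed by pericytes and B lymphocytes. Of the fixed list of pericyte and smooth muscle markers 6 of 12 were tested, 2 higher and 4 lower. Signals summed over all 12 were 33347 to 34608 in diabetic and 31552 to 37858 in control pools. Of the lymphocyte markers 10 were measured and 0 passed the filter on dim genes. The part of either cell type in the Ebf1 values was not tested.

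Rbpms was the one gene whose groups did not overlap. It encodes an RNA-binding protein that labels ganglion cells of all types in the mammalian retina and is therefore often used to count them. The brightest Rbpms probe set was at 3378.5, 3533 and 3340 in diabetic replicates 1 to 3, against 3043 and 2948 in control replicates 1 and 2. All 3 diabetic pools were higher than both controls, by a small step. The difference was 0.18 (SE 0.11, 95% interval -0.06 to 0.42), or 1.14-fold, with a limma unadjusted p of 0.121, and it lay between 0.16 and 0.20 with single arrays left out. The other probe sets of the gene did not separate the groups.

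The second Rbpms probe set by brightness was at 2120.5, 1600 and 2395 in diabetic pools, against 1977 and 1964 in control pools, a difference of 0.03 (95% interval -0.39 to 0.45). Here diabetic replicate 2 was the lowest of the 5 arrays, whereas it was the highest in the brightest probe set. The remaining Rbpms probe sets differed by 0.05 and 0.19, with overlapping groups. All 4 Rbpms probe sets belong to types that can detect more than 1 transcript, by the suffix of their names. Averaged over its probe sets, the Rbpms difference was 0.11.

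**Figure D2:**
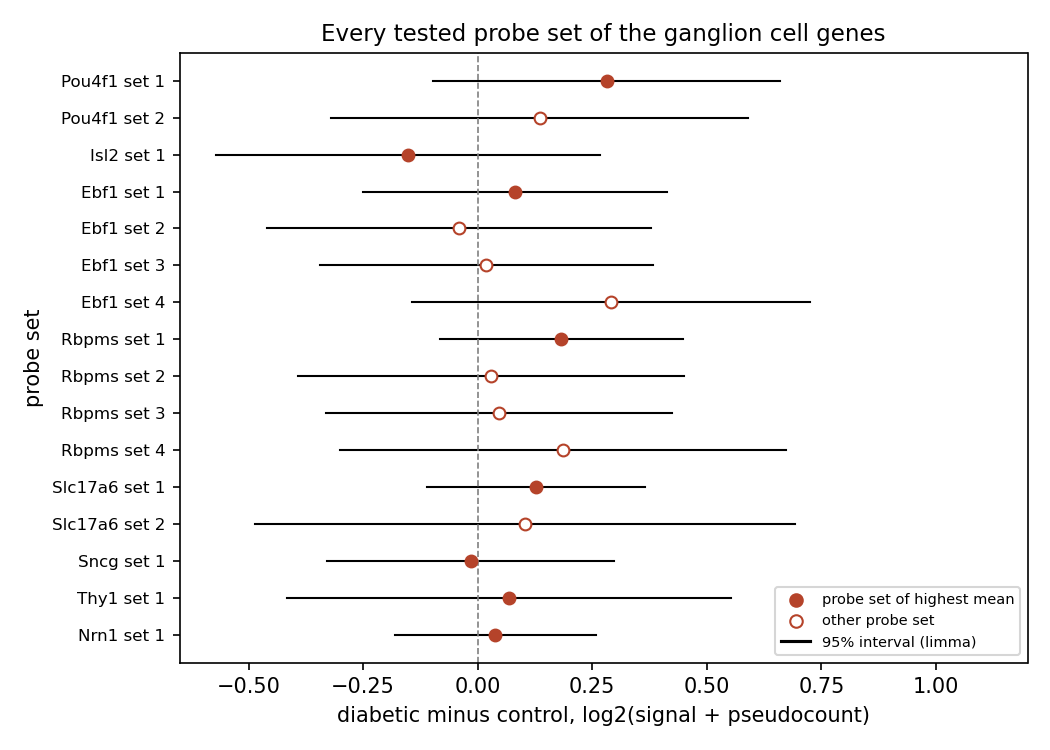
Difference between diabetic and control pools (log2 scale) for the 16 tested probe sets of the 8 genes, with 95% limma intervals; filled points mark the probe set of highest mean. Every interval holds 0, and 13 of the 16 points lie above 0.

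Slc17a6 encodes VGLUT2, the transporter that loads glutamate into synaptic vesicles and the main vesicular glutamate transporter of ganglion cells. Its brightest probe set was at 9733, 8829 and 8662 in diabetic replicates 1 to 3, against 7766 and 8841 in control replicates 1 and 2. Control replicate 1 was the lowest array and control replicate 2 lay among the diabetic pools. The difference was 0.13 (SE 0.10, 95% interval -0.10 to 0.35). Leaving out control replicate 1 gave 0.04, diabetic replicate 1 gave 0.08 and control replicate 2 gave 0.22. The dimmer Slc17a6 probe set was at 1919, 1087 and 1048 in diabetic pools, against 1153 and 1257 in control pools. In that probe set diabetic replicate 1 alone was high, both of the other diabetic pools were below the controls, and the difference was 0.10 (95% interval -0.49 to 0.69).

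The promoter windows of the members were searched for letters that member factors bind, because Pou4f1 and Pou4f2 are themselves DNA-binding. RefSeq windows of GRCm38.p6 matched 7 of the 10 genes by symbol, with 9 starts in all, and the 250 bases upstream of each start were read on both strands. The homeodomain core ATTAAT of POU4F sites stood in 1 of the 9 windows, against 4.39% of 32851 windows of all genes. The match lay upstream of the second annotated start of Slc17a6, at chr7:51624387-51624636 on the plus strand. It is shown because it is the one member window that holds the motif, with the match in capitals beginning at position -83 from the start:
Slc17a6: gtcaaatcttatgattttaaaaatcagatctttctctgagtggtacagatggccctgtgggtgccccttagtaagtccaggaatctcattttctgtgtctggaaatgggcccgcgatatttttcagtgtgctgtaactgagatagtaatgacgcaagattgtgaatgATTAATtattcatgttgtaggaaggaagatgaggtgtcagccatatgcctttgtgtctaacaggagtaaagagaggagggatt
A match of letters does not show binding, and no binding was measured on these arrays.

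Sncg encodes gamma-synuclein, a small cytoplasmic protein that is enriched in ganglion cells and their axons. Its signal was 9655, 9320 and 7146 in diabetic replicates 1 to 3, against 8809 and 8645 in control replicates 1 and 2. The 2 pools of 5 weeks of diabetes were the highest arrays and the pool of 3 to 4 weeks was the lowest, with the controls between them. On the log2 scale diabetic pools averaged 13.10 ± 0.23 (SD, n = 3), against 13.11 ± 0.02 (SD, n = 2) for control pools. This is a difference of -0.02 (SE 0.13, 95% interval -0.32 to 0.29). Without diabetic replicate 3 the difference was 0.12, and leaving out diabetic replicate 1 gave -0.10, diabetic replicate 2 -0.07, control replicate 2 -0.03 and control replicate 1 -0.0020. The pool of 3 to 4 weeks also had the highest skeletal muscle signal, 83539 summed over the muscle markers. With 1 pool of the shorter duration, duration, muscle content and pool cannot be told apart.

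Thy1 and Nrn1 encode proteins held at the cell surface by a lipid anchor. Thy1, a small immunoglobulin superfamily protein of neurons and T lymphocytes, is one of the oldest ganglion cell markers in rodent retina. Its signal was 10307, 16709 and 9627 in diabetic replicates 1 to 3, against 10707 and 11897 in control replicates 1 and 2. Diabetic replicate 2 stood far above the other 4 arrays, and both of the other diabetic pools were below both controls. The range of Thy1 over the 5 arrays, 0.79 on the log2 scale, was at the 94.5th percentile of the ranges of all tested genes. The difference was 0.07 (SE 0.21, 95% interval -0.41 to 0.54). Leaving out diabetic replicate 2 turned it to -0.18, diabetic replicate 3 gave 0.22, diabetic replicate 1 gave 0.17, control replicate 2 gave 0.14 and control replicate 1 gave -0.0070.

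Nrn1, or neuritin, promotes neurite growth and was the steadiest of the 8 genes. Its signal was 7356, 7505 and 6994 in diabetic replicates 1 to 3, against 7296 and 6889 in control replicates 1 and 2. The 5 arrays lay within 0.12 on the log2 scale, a range at the 5.17th percentile of all tested genes, and the groups overlapped. The difference was 0.04 (SE 0.09, 95% interval -0.17 to 0.24). With single arrays left out it lay between -0.0029, without control replicate 2, and 0.08, without control replicate 1, while leaving out diabetic replicate 2 gave 0.02 and diabetic replicate 3 gave 0.07.

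**Figure D3:**
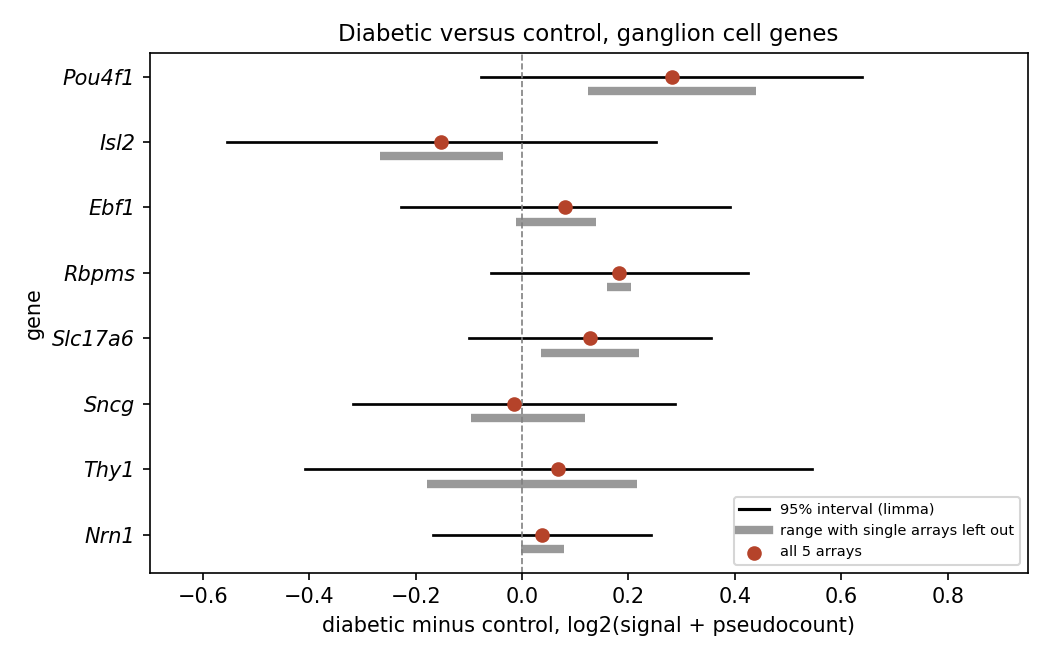
Difference between diabetic and control pools (log2 scale) for each of the 8 genes (red points), with the 95% limma interval (black) and the range of the difference when each array is left out in turn (grey). All 8 intervals hold 0; the grey ranges of Thy1, Sncg, Ebf1 and Nrn1 reach both sides of 0.

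The intervals bound how far the signal of a probe set could have fallen in diabetic pools. For the brightest probe set of each gene, the largest fall inside the 95% interval was 4.02% for Rbpms, 5.18% for Pou4f1, 6.67% for Slc17a6 and 10.9% for Nrn1 on the scale with the pseudocount. It was 14.6% for Ebf1, 19.8% for Sncg, 24.6% for Thy1 and 31.9% for Isl2. The dimmer probe sets gave wider bounds: in the fit of all probe sets the largest fall was 19.9% for the second Pou4f1 probe set, 28.7% for that of Slc17a6, and up to 23.8% for Rbpms and 27.3% for Ebf1. The small bounds on a fall of Rbpms, Pou4f1 and Slc17a6 thus hold for their brightest probe sets alone. For Pou4f1 the small bound goes with a high estimate and not with a narrow interval, which ran from -0.08 to 0.64. The bounds also vary with the fit, as the brightest Pou4f1 probe set gave 6.50% in the fit of all probe sets. The intervals of the brightest probe sets also hold rises, the largest being 55.8% for Pou4f1 and 45.9% for Thy1. No interval was computed over the genes together, since they were measured in the same 5 pools.

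Across arrays, diabetic replicate 2 was the high pool for most of the genes. Each gene was set on its own mean over the 5 arrays, and the 8 values were averaged in each array. This average was 0.03, 0.15 and -0.09 in diabetic replicates 1 to 3, against -0.03 and -0.06 in control replicates 1 and 2 on the log2 scale. By this average both the highest and the lowest array were diabetic. By the median of the 8 values the lowest array was control replicate 1, at -0.049, against -0.044 in diabetic replicate 3. The average over the diabetic arrays was 0.03 ± 0.12 (SD, n = 3), against -0.05 ± 0.02 (SD, n = 2) over the control arrays. Diabetic replicate 2 was the highest array for 5 of the 8 genes (Pou4f1, Ebf1, Rbpms, Nrn1 and Thy1), where 32.8% of all tested genes had their highest value there. Of the 8 genes, 7 were above their own mean in that array, and Isl2 was the exception. In diabetic replicate 3, 1 of the 8 genes, Rbpms, was above its own mean. The same average over all tested genes lay between -0.02 and 0.02 in the 5 arrays.

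**Figure D4:**
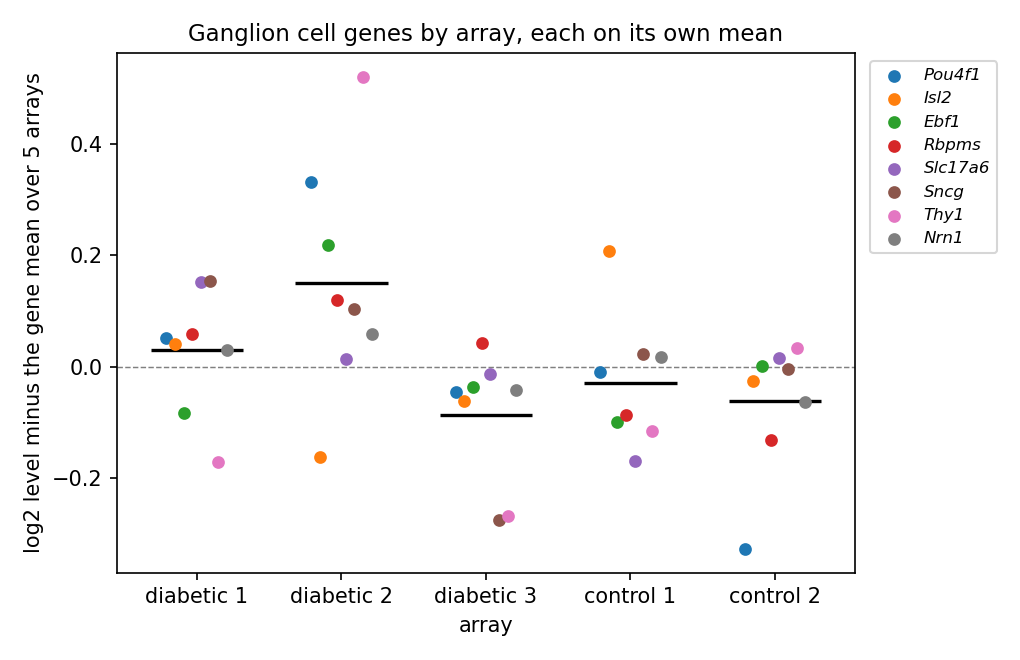
Level of each of the 8 genes in each array minus that gene's mean over the 5 arrays (log2 scale); black bars are averages over the 8 genes. The diabetic bars stand at 0.03, 0.15 and -0.09 for replicates 1 to 3, against control bars of -0.03 and -0.06.

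The direction of the group rested largely on diabetic replicate 2. Without it the median difference of the 8 genes was 0.0025, with 4 genes above and 4 below 0, against 0.07 with all arrays. Leaving out diabetic replicate 1 gave a median of 0.11, diabetic replicate 3 gave 0.14, control replicate 1 gave 0.03 and control replicate 2 gave 0.13. Diabetic replicate 2 also had the highest ratio of 3′ to 5′ signal for the beta-actin control, 4.32, against 2.01 and 2.43 in diabetic replicates 1 and 3 and 2.52 and 2.71 in control replicates 1 and 2. For the Gapdh control the same ratio was 0.90 in diabetic replicate 2. It was 0.78 and 0.84 in diabetic replicates 1 and 3, and 0.82 and 0.81 in control replicates 1 and 2. The part of RNA quality in the ganglion cell values was not tested. Markers of amacrine cells, of which only some share the ganglion cell layer, were high in the same array. Of 14 measured amacrine markers 11 were tested and 6 of them were highest in diabetic replicate 2, against 32.8% of all tested genes. Signals summed over the 14 measured were 138532 to 160690 in diabetic and 135937 to 142693 in control pools. Muller glia markers were highest in diabetic replicate 2 for 9 of 12, with summed signals of 312579 to 340406 in diabetic and 312268 to 334352 in control pools. Bipolar cell markers were highest there for 5 of 10 tested genes and rod markers for 2 of 12. With each gene on its own mean, Muller glia markers averaged 0.08 in that array. Bipolar cell markers averaged -0.03 and rod markers -0.01. High values in that array thus extended to Muller glia markers, while bipolar and rod markers as lists were not high. The part of these cell types in the ganglion cell values was not tested.

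Axonal and excitability genes of ganglion cells also had a small positive median difference. Of 27 genes listed 21 were tested, 16 with a difference above 0 and 5 below, with a median of 0.06, and 0 passed the adjusted p in either direction. Diabetic replicate 2 was the highest array for 13 of the 21, and without it 11 were above 0 with a median of 0.05. Averaged over probe sets, 16 of 20 were above 0 with a median of 0.019. Their groups did not overlap in 8 of 21 genes. In 6 of these every diabetic pool was higher, as in 9.99% of all tested genes, and in 2 every diabetic pool was lower, as in 8.14%. These genes are not confined to ganglion cells, and amacrine and horizontal cells share several of them.

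The neurofilament subunits, which fill large axons, had differences of both signs. Nefh, the heavy subunit, was at 13.27, 13.03 and 13.34 in diabetic replicates 1 to 3, against 13.58 and 13.36 in control replicates 1 and 2 (log2 levels). It differed by -0.26 (SE 0.12, limma unadjusted p = 0.0564, adjusted p = 0.9995). Nefl, the light subunit, differed by 0.15 (SE 0.08) and Nefm, the middle one, by 0.02 (SE 0.10). All 3 diabetic pools were below both controls for Nefh and, in its brightest probe set, above both for Nefl. The second Nefl probe set differed by 0.04 with overlapping groups, and the average over both was 0.095. Leaving out diabetic replicate 2 gave -0.023 for Nefm, and diabetic replicate 1 gave 0.11. Without control replicate 1 the Nefh difference was -0.15, and without diabetic replicate 2 it was -0.17. Nrcam, an adhesion molecule of the axon, differed by -0.23 (SE 0.11), with all diabetic pools below both controls. The neuronal tubulin Tubb3 differed by 0.07 (SE 0.16), and by -0.08 without diabetic replicate 2.

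Many regulators that specify ganglion cells in development were dim in these retinas. Of 19 listed 9 passed the filter, 6 with a difference above 0 and 3 below, with a median of 0.04, and 0 passed the adjusted p. The direction of this list turned with the probe sets and the filter: averaged over probe sets 4 of 10 were above 0 with a median of -0.052, and without the filter 9 of 18 with a median of -0.026. Atoh7 did not pass the filter on dim genes. Its brighter probe set, which passed the filter on dim probe sets, differed by 0.04 (95% interval -0.55 to 0.63). Isl1, a partner of Pou4f2 that bipolar and amacrine cells also express, differed by 0.04 (95% interval -0.16 to 0.24), with -0.024 without diabetic replicate 2 and 0.099 without diabetic replicate 1. Myt1, a zinc finger factor of neuronal differentiation, was at 12.54, 12.62 and 12.90 in diabetic pools, against 12.39 and 12.45 in control pools, a difference of 0.27 (SE 0.12, limma unadjusted p = 0.0593). Onecut2, a factor shared with horizontal cells, differed by 0.30 (SE 0.18). In both Myt1 and Onecut2 all 3 diabetic pools were above both controls, and without diabetic replicate 3 the Myt1 difference was 0.16. Both rest on the brightest probe set: averaged over probe sets, Myt1 differed by -0.066 and Onecut2 by 0.055.

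Genes that mark ganglion cell types gave no common direction. Of 22 listed 15 were tested, 6 with a difference above 0 and 9 below, with a median of -0.01, and 0 passed the adjusted p. With arrays centred on their medians 9 of 15 were above 0, with a median of 0.03. Cck, the neuropeptide cholecystokinin, which amacrine cells also make, was at 11.32, 11.32 and 11.26 in diabetic replicates 1 to 3, against 11.70 and 11.54 in control replicates 1 and 2. All diabetic Cck values lay below both controls, with a difference of -0.32 (SE 0.12, limma unadjusted p = 0.0247, adjusted p = 0.9995). Opn4, or melanopsin, the photopigment of intrinsically photosensitive ganglion cells, differed by 0.12 (95% interval -0.32 to 0.55), and by 0.0074 without control replicate 1 and 0.23 without control replicate 2. Averaged over its probe sets, Opn4 differed by 0.04. Jam2, an adhesion molecule that marks a direction-selective ganglion cell type in mouse, differed by 0.19 (SE 0.11) in its brightest probe set and by 0.012 averaged over its probe sets.

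**Figure D5:**
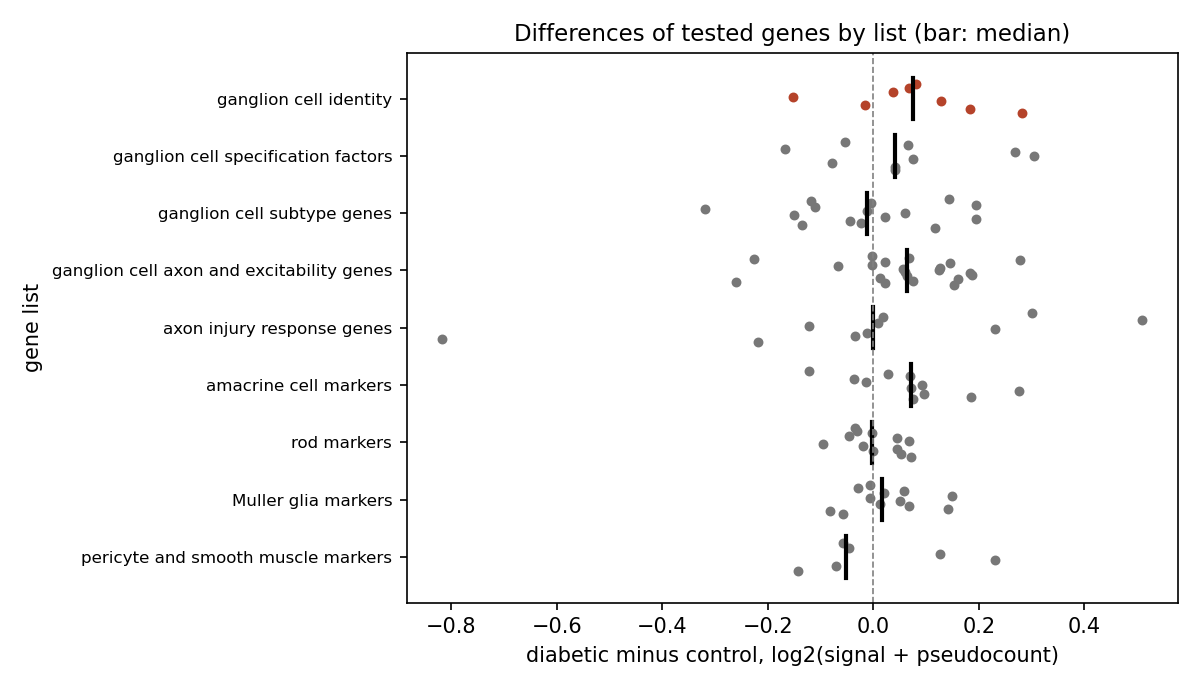
Differences between diabetic and control pools (log2 scale) of tested genes in 9 lists, 1 point per gene, with a black bar at the list median; the ganglion cell identity genes are in red. The median is 0.07 for ganglion cell identity, 0.06 for axon and excitability genes, 0.04 for specification factors and -0.01 for subtype genes.

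Injury response genes, which ganglion cells switch on after damage to the optic nerve, also had no common direction. Of 20 listed 10 passed the filter, 5 above and 5 below 0, with a median of -0.0012, and 0 passed the adjusted p. Jun, a transcription factor of the axon injury response, was at 12.83, 12.85 and 12.80 in diabetic replicates 1 to 3, against 13.34 and 13.95 in control replicates 1 and 2. The Jun difference was -0.82 (SE 0.16, limma unadjusted p = 0.000682, adjusted p = 0.9995), and -0.52 without control replicate 2. Edn2, endothelin 2, a peptide that stressed photoreceptors make, differed by 0.51 (SE 0.19, limma unadjusted p = 0.0268, adjusted p = 0.9995). It lay between 0.37 and 0.65 with single arrays left out. Of the 10 tested genes every diabetic pool was higher in 1, Edn2, against 9.99% of all tested genes. Every diabetic pool was lower in 2, Jun among them, against 8.14%. Sox11, Ecel1, Sprr1a and Gal, genes with strong induction in injured neurons in mouse, lay below the filter on dim genes. So did Hrk, Bbc3, Chac1, Fgf2, Il6 and Lif. Besides Jun and Edn2, the listed genes that passed it were Atf3, Ddit3, Klf6, Gadd45a, Trib3, Sesn2, Cebpb and Crh. The filter kept the upper 60% of all genes by level.

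Markers of other cells set the frame for these values. Rod markers were bright in all arrays and had a median difference of -0.0018, with 5 of 12 above 0, and Muller glia markers had a median of 0.02, with 7 of 12 above 0. Amacrine markers had a median of 0.07, with 8 of 11 above 0. Of the oligodendrocyte markers of the optic nerve 2 of 12 measured passed the filter. Skeletal muscle markers were high in diabetic replicate 3, with a summed signal of 83539, and control replicate 2, with 51861, against 2715 to 3233 in the other arrays. The average of the 8 ganglion cell genes, each on its own mean, was lowest in the same 2 arrays, at -0.09 and -0.06. The median of the 8 values did not follow this order. It was -0.044 in diabetic replicate 3 and -0.015 in control replicate 2, against -0.049 in control replicate 1. The part of muscle in these averages was not tested. Without these 2 arrays the median difference of the 8 ganglion cell genes was 0.17, with 7 of 8 above 0, in a fit with 1 control array, and with the muscle level as a covariate it was 0.07. Pigment epithelium markers, whose tissue lies behind the retina, were below 0 in 7 of 7 tested genes. Signals summed over the 8 measured were 53526 to 80030 in diabetic and 99279 to 145562 in control pools. The part of pigment epithelium in the ganglion cell values was not tested.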

How the data were processed

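The deposited values are signal intensities of 45101 probe sets in 5 arrays, on a linear scale. The authors' columns share 1 mean after trimming 2% of values at each end, which is how globally scaled arrays look, and array medians ran from 634.6 to 714.7. The summarization software is not given in the sources used here. Of these probe sets 64 were controls, 34945 had 1 gene symbol, 932 had several and 9160 had none listed. Symbols were updated by Entrez ID, which matched 34741 of them.

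Signals were taken as log2(signal + 120.9), the pseudocount being the 20th percentile of all values, so fold changes of dim genes are understated. The upper 60% of genes by mean level, 10916, were tested with limma (lmFit, eBayes with a trend) and Benjamini-Hochberg adjustment at 0.05, and probe sets likewise (27022 tested). Steps were tested on simulated data. Probe sets with several symbols were left out.

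The ganglion cell genes and all lists were chosen with earlier results of these data known. Other genes named are the 2 of smallest unadjusted p in each of the 4 further ganglion cell lists, plus Nefl, Nefm, Nefh, Tubb3, Opn4, Atoh7 and Isl1; those of the marker lists of other cells are not printed. The other injury response genes were named as below or past the filter after their values were seen. Alternatives covered normalization, pseudocount, filter, probe set choice, variance model, array weights, covariates and left-out arrays. The tools were limma 3.58.1 under R 4.3.3 and matplotlib 3.10.9 for plots.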

Additional observations from a re-analysis of the deposited data

How the results depend on the processing

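All 8 genes stayed above the adjusted p threshold under each of the alternatives in which they were tested, and the median of the 8 genes stayed above 0, between 0.0025 and 0.14 with single arrays left out and up to 0.17 without both arrays of highest muscle signal. Signs turned for genes near 0. Sncg was at 0.028 with arrays centred on their medians, at 0.12 with a replicate block and at 0.11 without both arrays of highest muscle signal. Thy1 was at -0.068 with array weights. The replicate block fits diabetic replicate 3 on its own, so its differences equal those without that array and are not a separate alternative. With single arrays left out, Thy1 lay between -0.18 and 0.22, Sncg between -0.095 and 0.12, Ebf1 between -0.011 and 0.14 and Nrn1 between -0.0029 and 0.079. The cause was not tested.

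Counts of genes past the threshold were 0 in the fit of all arrays (371 at an unadjusted p under 0.05), 2 with the replicate block (Rgr and Spc25) and 2 without both arrays of highest muscle signal (Npl and Spc25), and between 0 and 1 with single arrays left out (Prss22 without diabetic replicate 2, Spc25 without diabetic replicate 3). The names of these genes were chosen with their values in view. Probe sets past it were 0, 10 with the replicate block, and between 0 and 3 with single arrays left out. Whether the replicate numbers pair the arrays cannot be decided from these values. Deviations from group means correlated at 0.13 for number 1 and at -0.14 for number 2. With 2 controls, however, the control deviations are mirror images, so each correlation returns with the opposite sign for the other control. Diabetic replicate 3 has no partner. Without a probe set of an _x_at, _s_at or _a_at name Rbpms had no value, and Ebf1 and Isl2 fell outside the upper 40% of genes by level. Leaving out a control array leaves 1 control, which is assumed to vary like the other group. The number of arrays, and for Isl2 its low signal, limit the precision.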
